A study of Mus musculus with 48 samples.

Results

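*Cx3cr1*, *P2ry12*, *Tmem119*, *Csf1r*, *C1qa*, *C1qb*, *C1qc*, *Aif1* and *Trem2*, genes in wide use as markers of microglia, were examined in the mouse amygdala. They were chosen by symbol, and all 9 were found among the 52636 genes of the table. Microglia are the resident immune cells of the brain, which survey the tissue with motile processes, take up debris and take part in the removal of synapses. They depend on signals through the receptor that *Csf1r* encodes, and neurons and astrocytes supply several of the ligands of their receptors. In bulk tissue, fewer microglia and less RNA per microglial cell cannot be told apart.

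RNA sequencing had been run on punches of the right amygdala from 48 female mice, 8 to 11 weeks old, for all of which the labels give the strain as C57BL/6NTac-Brd1. WT mice and litter-matched mice with a targeted deletion in 1 copy of *Brd1* (*Brd1*+/-), which encodes a chromatin reader of histone acetylation complexes, had received vehicle (saline), imipramine (IMN, a tricyclic antidepressant, 10 mg/kg) or fluoxetine (FLX, a selective serotonin reuptake inhibitor, 5 mg/kg), giving 6 groups of 8. All had been injected on 2 days and had gone through tail suspension, an open field and forced swimming before the brain was taken, vehicle mice included. The deletion is carried by every cell, and the punches hold all cell types of the region. Levels were given as TPM, a share of a library's transcripts per gene length, so the number of reads behind a value, and with it the size of its counting error, is unknown; the methods state only a lower limit on reads. With vehicle, mean *Brd1* was 35.6 TPM in WT and 26.0 TPM in *Brd1*+/- mice (two-sided exact permutation test, *p* = 0.00109), with *p* = 0.000155 in IMN and 0.000777 in FLX mice.

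In 3 libraries all 9 genes were the highest of their group. These were WT IMN replicate 3, where the 9 genes summed to 725 TPM, *Brd1*+/- vehicle replicate 6, at 679 TPM, and WT FLX replicate 4, at 609 TPM. In the first of them each gene was between 1.52-fold (*P2ry12*) and 2.36-fold (*Trem2*) over the median of the rest of the group, and in the other two between 1.44 and 1.88-fold and between 1.23 and 2.38-fold. Summed oligodendrocyte markers stood 3.43, 2.56 and 1.48-fold over the rest of the group in the same libraries, and summed neuron markers 0.941, 0.976 and 1.03-fold. Striatal neuron markers, summed, stood at 0.248, 9.74 and 7.33-fold, and the sum of a list of activated microglia genes at 1.13, 1.57 and 3.27-fold. In that list *Axl*, *Spp1*, *Lpl* and *Cd68* had means of 32.5, 19.7, 18.6 and 16.1 TPM over 48 libraries. Each other gene of it had at most 3.27 TPM, so the sum mainly follows these genes. The striatal sum varied widely between punches, from 141 to 6201 TPM in the *Brd1*+/- vehicle group. Results are therefore also given without these libraries.

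Levels of the 9 genes spanned about an order of magnitude. The mean over 48 libraries was 87.8 ± 23.6 TPM for *C1qb*, 86.6 ± 23.2 TPM for *C1qa* and 65.0 ± 16.5 TPM for *C1qc* (SD, n = 48), the genes of the chains of complement component C1q. *Csf1r*, the receptor for CSF1 and IL-34, followed at 45.2 ± 11.4 TPM, and *P2ry12*, the ADP receptor of resting microglia, at 34.7 ± 7.56 TPM (SD, n = 48). The fractalkine receptor gene *Cx3cr1* had 25.5 ± 6.72 TPM, *Tmem119*, which encodes a membrane protein of resident microglia, 23.9 ± 6.21 TPM, *Aif1*, the gene of the actin-binding protein IBA1, 12.5 ± 3.54 TPM, and *Trem2*, a lipid-sensing receptor, 11.8 ± 5.71 TPM (SD, n = 48). Together they made up between 254 and 725 TPM of a library, and none was listed at 0 in any library.

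Neighbours in this order were compared within libraries. *C1qb* and *C1qa* did not differ beyond their spread (sign-flip permutation test of log2 levels, *p* = 0.225, *C1qb* higher in 28 of 48 libraries). *Cx3cr1* was above *Tmem119* in 35 of 48 libraries (permutation, adjusted *p* = 0.0193 over the 8 neighbour pairs) and *Aif1* above *Trem2* in 28 of 48 (permutation, adjusted *p* = 0.0360), and each of these orders held in the means of 4 of the 6 groups. The other 5 steps gave the smallest *p* that 100000 permutations allow, 1e-05 (adjusted *p* = 1.6e-05). Of these, *C1qa* over *C1qc*, *C1qc* over *Csf1r*, *P2ry12* over *Cx3cr1* and *Tmem119* over *Aif1* held in all 48 libraries, and *Csf1r* over *P2ry12* in 45.

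**Figure D1:**
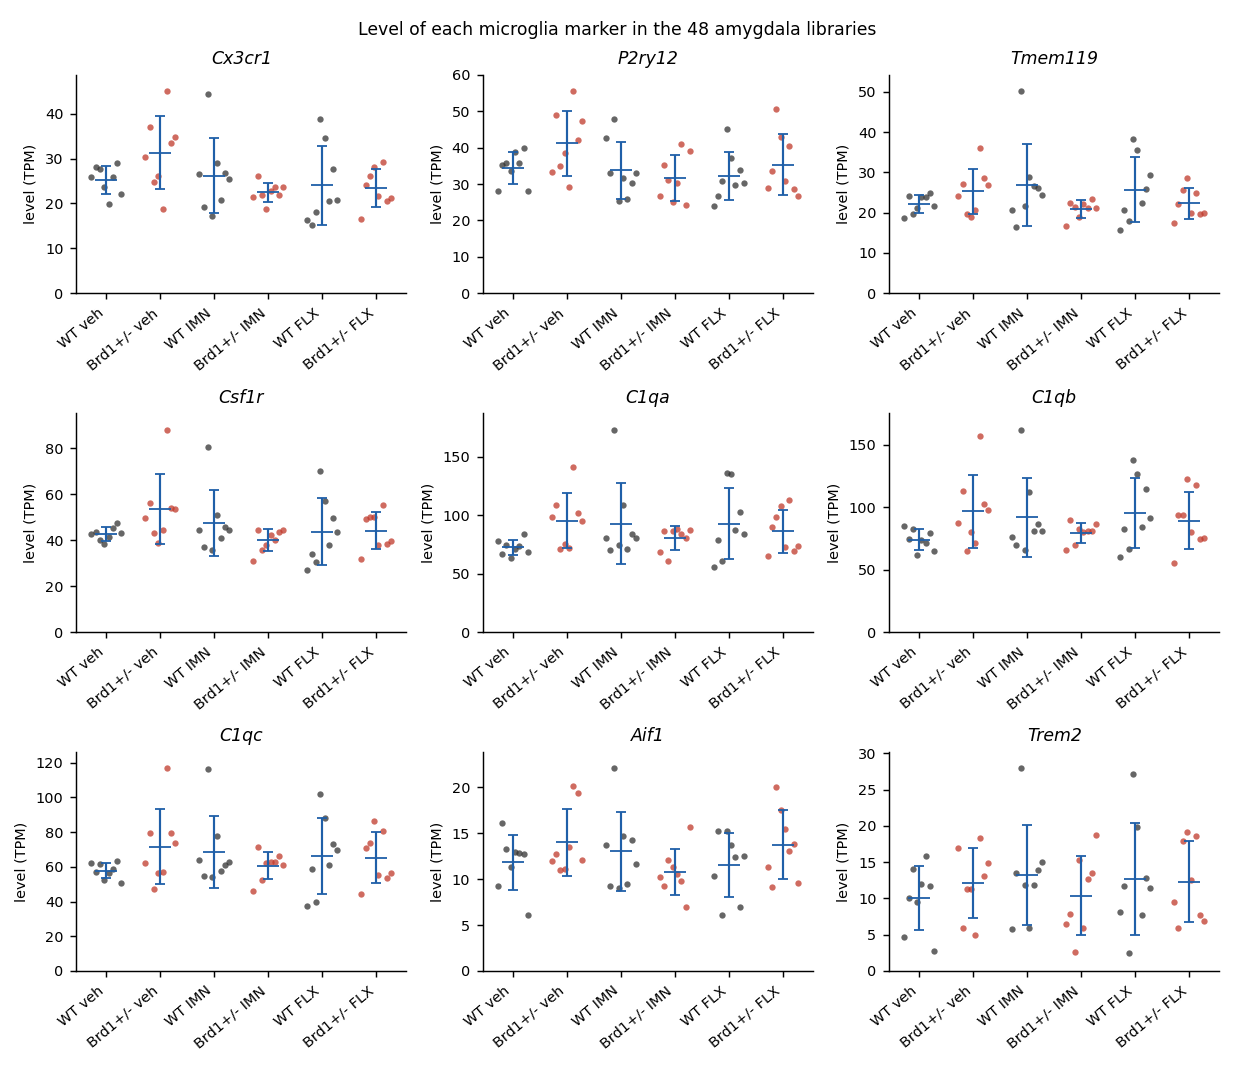
Level in TPM (vertical axes, from 0) of each of the 9 genes in every library, by group (horizontal axes; veh, vehicle; black points WT, red points *Brd1*+/-), with blue bars for the mean ± SD of 8 mice. The groups overlap in every panel, and the highest points belong mostly to single libraries of the WT IMN, *Brd1*+/- vehicle and WT FLX groups.

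The C1q genes lie side by side on the minus strand of chromosome 4 (GRCm38), *C1qb* at 136880129 to 136886187, *C1qc* at 136889804 to 136893065 and *C1qa* at 136895917 to 136898803. *Trem2* (plus strand, 48346401 to 48354147) and *Aif1* (minus strand, 35170991 to 35176068) lie on chromosome 17, *Tmem119* on chromosome 5 (minus strand, 113793729 to 113800516), *P2ry12* on chromosome 3 (minus strand, 59216272 to 59262871) and *Cx3cr1* on chromosome 9 (minus strand, 119901616 to 120069879). *P2ry12* shares exonic bases with *Med12l*, *Csf1r* with *Hmgxb3* and *Cx3cr1* with *Gm33858*, each on the opposite strand. Whether counting used the strand is not stated, so the levels of these members are uncertain to that extent.

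The sequence before the start of *C1qb* and *C1qc*, neighbouring genes whose levels followed each other closely, and of *Trem2*, the member that varied most, is shown from RefSeq promoters (GRCm38.p6), written 5′ to 3′ on the gene's strand and without annotated exon bases. Capitals mark GAGGAA, the core letters bound by PU.1, the transcription factor of macrophages and microglia encoded by *Spi1*, on either strand (TTCCTC is its reverse complement), searched in the 250 bases before each start. These are chr4:136886201-136886450 for *C1qb* (minus strand), chr4:136893066-136893164 for *C1qc* (minus strand) and chr17:48346151-48346400 for *Trem2* (plus strand).
C1qb: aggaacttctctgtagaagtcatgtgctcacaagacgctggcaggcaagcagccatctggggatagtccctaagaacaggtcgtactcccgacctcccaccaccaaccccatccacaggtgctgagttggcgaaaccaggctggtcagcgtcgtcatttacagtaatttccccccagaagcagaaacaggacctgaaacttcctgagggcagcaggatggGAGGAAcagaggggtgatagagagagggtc
C1qc: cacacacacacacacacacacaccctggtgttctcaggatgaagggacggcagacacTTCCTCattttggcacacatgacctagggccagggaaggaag
Trem2: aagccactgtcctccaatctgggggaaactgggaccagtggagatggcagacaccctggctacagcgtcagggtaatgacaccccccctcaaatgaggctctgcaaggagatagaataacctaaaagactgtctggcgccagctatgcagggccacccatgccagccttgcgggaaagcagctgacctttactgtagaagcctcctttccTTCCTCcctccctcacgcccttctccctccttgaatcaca
The letters begin at position -30 from the start of *C1qb*, -193 from that of *C1qc* and -40 from that of *Trem2*, and at -7 from that of *Aif1*, while they do not occur in the 250 bases before *P2ry12*. In all, 4 of the 5 members examined held them, against 23.3% of 32851 promoters of the same length. *Cx3cr1*, *Tmem119*, *Csf1r* and *C1qa* were not examined, and enrichment was not tested. The match of *Aif1* lies in bases that GENCODE annotates as exon of the gene, as do 151 of the 250 bases searched for *C1qc*, though not its match. The longer GAGGAAGT, which contains GAGGAA, occurs before *C1qc* alone of the 5 and in 2.44% of the promoters. A match is a description of letters, not of a bound site.

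The receptors were examined by group. For *Cx3cr1* the lowest, median and highest library was 19.8, 25.9 and 29.1 TPM in WT vehicle mice and 18.7, 31.9 and 45.1 TPM in *Brd1*+/- vehicle mice. With IMN the same values were 17.3, 26.1 and 44.4 TPM in WT and 18.7, 22.3 and 26.0 TPM in *Brd1*+/- mice, and with FLX they were 15.2, 20.7 and 38.8 TPM in WT and 16.6, 22.9 and 29.2 TPM in *Brd1*+/- mice. All groups overlapped, and the *Brd1*+/- vehicle group had the highest median. *Csf1r*, in the same terms, stood at 38.4, 42.8 and 47.3 TPM (WT) and 38.6, 51.7 and 88.1 TPM (*Brd1*+/-) with vehicle, at 35.7, 44.4 and 80.5 TPM in WT IMN and 30.9, 41.1 and 44.6 TPM in *Brd1*+/- IMN mice, and 27.1, 40.8 and 69.9 TPM in WT FLX and 31.9, 44.4 and 55.4 TPM in *Brd1*+/- FLX mice. Group means of *P2ry12* ran from 31.6 ± 6.29 TPM in *Brd1*+/- IMN to 41.2 ± 8.93 TPM in *Brd1*+/- vehicle mice, and those of *Tmem119* from 20.9 ± 2.13 TPM in *Brd1*+/- IMN to 26.8 ± 10.3 TPM in WT IMN mice (SD, n = 8). The means of all 4 genes were lowest in *Brd1*+/- IMN mice.

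*C1qa* is given for the C1q genes, whose ratios within a library varied least of all pairs of members (SD of the log2 ratio 0.11 in each of their pairs). Their group differences were not the same. With FLX in WT mice the log2 difference was 0.29 for *C1qa* and 0.12 for *C1qc*. Its lowest, median and highest library was 63.0, 72.5 and 83.9 TPM in the WT vehicle group and 70.7, 96.6 and 141 TPM in the *Brd1*+/- vehicle group. With IMN these were 70.1, 80.4 and 173 TPM in WT and 61.1, 85.1 and 88.2 TPM in *Brd1*+/- mice, and with FLX 55.4, 85.7 and 135.6 TPM in WT and 64.8, 81.4 and 113 TPM in *Brd1*+/- mice. WT vehicle mice thus had the lowest median and a narrow range, and the median of WT IMN mice was less than 0.5 of their highest library. Within a library, *C1qa* was 0.877 to 1.16 times *C1qb* (median 0.979) and *C1qb* was 1.17 to 1.68 times *C1qc* (median 1.33).

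*Aif1* and *Trem2* were the lowest of the 9. *Aif1* had group means from 10.7 ± 2.51 TPM in *Brd1*+/- IMN to 14.01 ± 3.67 TPM in *Brd1*+/- vehicle mice (SD, n = 8). *Trem2* had a lowest, median and highest library of 2.75, 10.9 and 15.8 TPM in WT vehicle, 5.03, 12.2 and 18.4 TPM in *Brd1*+/- vehicle, 5.77, 12.7 and 27.9 TPM in WT IMN, 2.65, 10.3 and 18.8 TPM in *Brd1*+/- IMN, 2.50, 11.6 and 27.1 TPM in WT FLX and 5.90, 11.1 and 19.1 TPM in *Brd1*+/- FLX mice. Its range over all libraries was 11.2-fold, against 2.33-fold for *P2ry12* and at most 3.62-fold (*Aif1*) for the other 8. Libraries under 8 TPM of *Trem2* occurred in every group, 15 of 48 in all, with 2 of 8 in each of 4 groups, 3 in *Brd1*+/- FLX and 4 in *Brd1*+/- IMN mice. The limit of 8 TPM was set after the values were seen.

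The spread of *Trem2* was set beside the reads a gene can receive. Within a library, reads are proportional to the level times the transcript length, and with the longest coding transcript in GENCODE this product was 12.8 TPM × kb for *Trem2* (1088 bases) and 10.9 for *Aif1* (875 bases), against 53.6 for *Tmem119*, the next lowest, and 213 for *Csf1r*. The SD of log2 levels within groups was 0.82 for *Trem2* and 0.41 for *Aif1*, and between 0.29 (*P2ry12*) and 0.35 (*C1qb*) for the other 7. Among the 11549 genes of at least 10 TPM the median was 0.28, and *Trem2* lay at percentile 93.3. The part of counting error in the spread was not tested, since TPM keeps no depth.

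Groups accounted for little of the variance of the members. Between-group variance was 4.09% for *Trem2*, 6.62% for *C1qc* and 17.5%, the highest, for *Cx3cr1*. The median over the 9 genes was 12.2%, beside 11.2% over all 27944 genes tested.

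The genotypes were first compared in vehicle mice, to ask whether microglial transcripts differed with reduced *Brd1*. All 9 genes had a higher mean in *Brd1*+/- mice, with a median log2 difference of 0.27 beside 0.03 over all 24279 genes tested, but 0 of 9 passed an adjusted *p* of 0.05 (limma, Benjamini-Hochberg), where 0.708% of all genes did. At an unadjusted *p* under 0.05 there were 3, *C1qa*, *C1qb* and *Csf1r*, where 8.52% of all genes passed. *C1qa* had the largest difference, with 95.4 ± 23.6 TPM in *Brd1*+/- and 72.5 ± 6.54 TPM in WT mice (SD, n = 8; log2 difference 0.36, SE 0.13, 95% CI 0.10 to 0.63, limma adjusted *p* = 0.366). Without *Brd1*+/- vehicle replicate 6 the median of the members was 0.18. The sum of the 9 genes ranged from 308 to 391.8 TPM in WT and from 328 to 679 TPM in *Brd1*+/- mice, so that the groups overlapped.

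Other cell types moved in the same comparison. All 7 oligodendrocyte markers had an unadjusted *p* under 0.05 with none past the adjusted threshold (limma, median log2 difference 1.49), and their sum ranged from 2325 to 16346 TPM in *Brd1*+/- and from 673 to 11019 TPM in WT vehicle mice. Of the astrocyte markers 3 of 7 (median log2 difference 0.30) and of the endothelial markers 1 of 6 (0.25) reached an unadjusted *p* under 0.05 (limma). Red blood cell markers had a median of 0.64, with 1 of 5 at that *p*, and oligodendrocyte precursor markers 0.26, with 0 of 3. Neuron markers had a median of -0.16, with 5 of 8 below 0 and 0 at that *p*. Markers of perivascular macrophages summed to 1.71 to 17.2 TPM in *Brd1*+/- and 1.82 to 7.01 TPM in WT vehicle mice. Blood leukocyte markers summed to at most 0.576 TPM in these groups, with *S100a9* and *Nkg7* listed at 0 in all 48 libraries. The part of these cell types in the difference was not tested.

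In IMN mice the order was the other way. All 9 genes had a lower mean in *Brd1*+/- mice, with a median log2 difference of -0.17 beside 0.01 over all genes. Of the 9, 0 were called, where 0.017% of 23581 genes were, and 0 reached an unadjusted *p* under 0.05, where 3.58% did (limma). The largest difference was that of *Trem2*, at -0.40 (SE 0.39, 95% CI -1.22 to 0.41, limma adjusted *p* = 1.00). Without WT IMN replicate 3 the median was -0.05. In FLX mice 6 of the 9 lay above and 3 below 0 with a median of 0.02. Of the 9, 0 were called, where 1.54% of all genes were, and 0 reached an unadjusted *p* under 0.05, where 16.6% did (limma). *Aif1* had the largest difference at 0.27 (SE 0.21, 95% CI -0.19 to 0.72, limma adjusted *p* = 0.579). Leaving out WT FLX replicate 3 gave a median of -0.08, and leaving out replicate 4 gave 0.13. Over all 48 libraries with treatment in the model, the genotype differences ran from -0.10 (*Tmem119*, the largest in size, SE 0.09, 95% CI -0.29 to 0.09, limma adjusted *p* = 0.810) to 0.09 (*P2ry12*). Their median was 0.04, and 0.09 without the 3 libraries in which all 9 genes were highest. Called were 0 of 9, where 0.0215% of all genes were, and 0 reached an unadjusted *p* under 0.05, where 8.55% did (limma).

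The drugs were then compared with vehicle within each genotype, the same 8 vehicle libraries serving both drugs and the genotype comparison. The sample codes of vehicle mice and of drug-treated mice fall in separate ranges, so whatever the codes stand for and the drugs cannot be told apart. In *Brd1*+/- mice all 9 genes had a lower mean with IMN, with a median log2 difference of -0.31 beside -0.03 over all genes. None of the 9 was called (0 of 9, limma, where 0.776% of 24225 genes were), and *Cx3cr1*, *P2ry12*, *Csf1r* and *Aif1* reached an unadjusted *p* under 0.05, where 9.3% of all genes did. *Cx3cr1* had the largest difference, with 22.5 ± 2.11 TPM with IMN and 31.3 ± 8.19 TPM with vehicle (SD, n = 8; log2 difference -0.44, SE 0.14, 95% CI -0.74 to -0.13, limma adjusted *p* = 0.287). Without *Brd1*+/- vehicle replicate 6 the median was -0.21. In this comparison too all 7 oligodendrocyte markers reached an unadjusted *p* under 0.05 (0 called, limma, median -1.02), as did 3 of 6 endothelial markers (median -0.38). The summed oligodendrocyte level ranged from 1158 to 6804 TPM with IMN. Neuron markers had a median of 0.18, with 6 of 8 above 0. These cell types were measured in the same punches as the members. Their part in the difference was not tested.

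With FLX in *Brd1*+/- mice 8 of the 9 had a lower mean and the median was -0.14. *Cx3cr1*, again the largest at -0.39 (SE 0.16, 95% CI -0.73 to -0.05, limma adjusted *p* = 0.617), was the 1 gene with an unadjusted *p* under 0.05, where 6.94% of all genes passed. Of the 9, 0 were called, where 0.731% of all genes were. Without *Brd1*+/- vehicle replicate 6 the median was -0.05. FLX and IMN differed in *Brd1*+/- mice by a median of 0.13, all 9 genes having a higher mean with FLX, and by 0.06 without *Brd1*+/- FLX replicate 4. Here 0 of 9 were called or reached an unadjusted *p* under 0.05 (limma, 0% of all genes called and 2.99% at that *p*), and *Aif1* differed most, at 0.34 (SE 0.18, 95% CI -0.04 to 0.72, limma adjusted *p* = 1.00).

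In WT mice IMN gave a median log2 difference of 0.20, with 8 of the 9 genes above 0 and *P2ry12* at -0.05. Of the 9, 0 were called or reached an unadjusted *p* under 0.05 (limma, 0% of all genes called and 4.58% at that *p*), and *Trem2* had the largest difference at 0.41 (SE 0.37, 95% CI -0.38 to 1.19, limma adjusted *p* = 0.970). Without WT IMN replicate 3 the median was 0.06. FLX in WT mice gave a median of 0.12 with 5 genes above and 4 below 0, among them *C1qb*, the largest, at 0.32 (SE 0.15, 95% CI -0.01 to 0.64, limma adjusted *p* = 0.308) and *Cx3cr1* at -0.14. Again 0 of 9 were called, where 0.335% of all genes were, and 0 reached an unadjusted *p* under 0.05, where 16.8% did (limma). All 7 oligodendrocyte markers reached an unadjusted *p* under 0.05 in the same comparison (0 called, limma, median log2 difference 1.16), as did 3 of 7 astrocyte and 1 of 6 endothelial markers, and their part was not tested. The median of the members was 0.00 without WT vehicle replicate 8, 0.02 without WT FLX replicate 4 and 0.23 without WT FLX replicate 1. FLX against IMN in WT mice had a median of -0.08, 8 of the 9 being lower with FLX, 0 of 9 called or with an unadjusted *p* under 0.05 (limma, 0% of all genes called and 4.78% at that *p*) and *Aif1* the largest at -0.17 (SE 0.22, 95% CI -0.64 to 0.30, limma adjusted *p* = 0.885). Without WT IMN replicate 3 this median was 0.02, and without WT FLX replicate 4 as well it was -0.06.

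**Figure D2:**
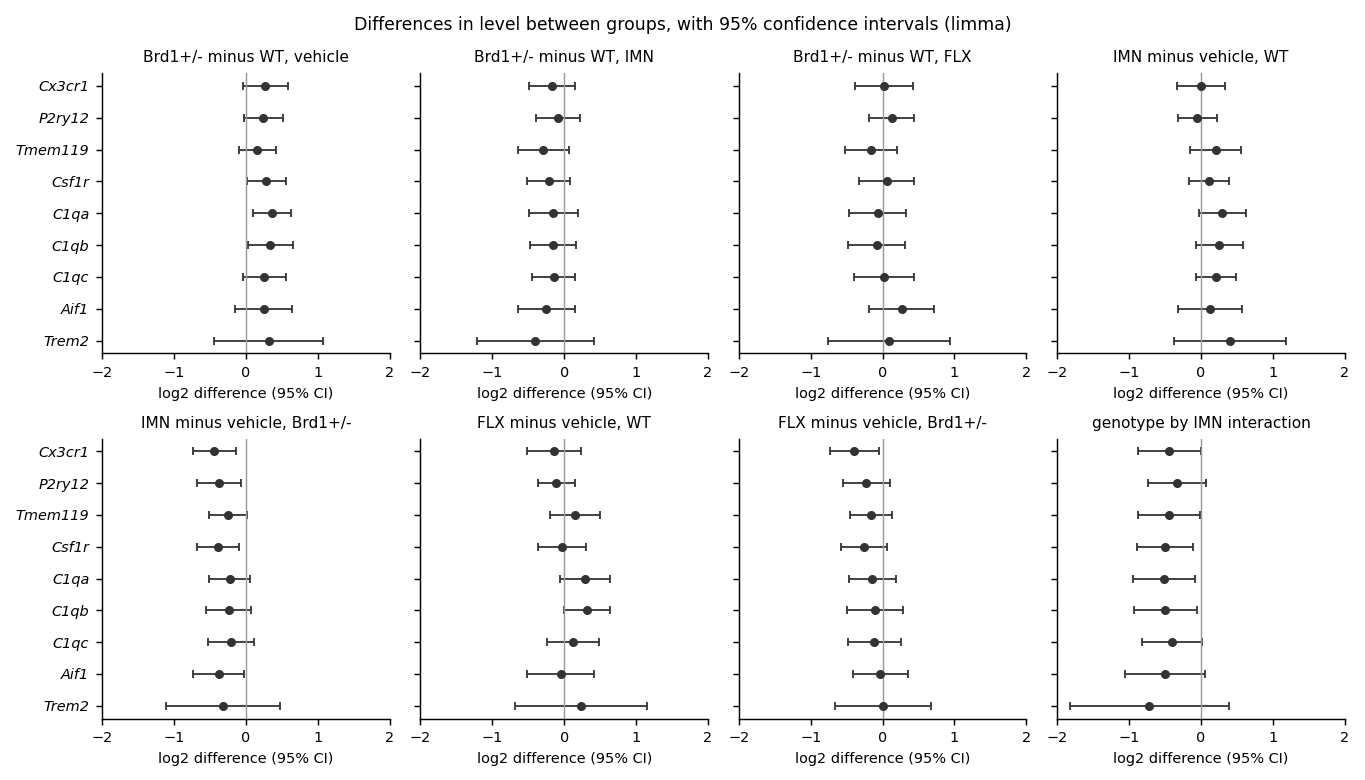
Log2 difference in level (horizontal axes, points) with its 95% confidence interval from limma (bars) for the 9 genes in 7 comparisons of 2 groups of 8 mice and in the genotype by IMN interaction. All 9 points lie to the right of 0 between genotypes with vehicle and to the left for IMN in *Brd1*+/- mice, and most intervals include 0.

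Whether IMN acted differently in the genotypes was tested as an interaction. The change with IMN was lower in *Brd1*+/- than in WT mice for all 9 genes, with a median log2 interaction of -0.49 beside -0.03 over all 26673 genes. None passed the adjusted threshold (0 of 9, limma, where 0.536% of all genes did), and 5 reached an unadjusted *p* under 0.05, where 9.24% of all genes did, or 3 with median-ratio scaling or quantile normalization. *Csf1r* had the smallest *p* (log2 interaction -0.50, SE 0.19, limma adjusted *p* = 0.414), and *Trem2* the largest size, at -0.72 (SE 0.54, 95% CI -1.83 to 0.39, limma adjusted *p* = 0.733). The median was -0.37 without WT IMN replicate 3 and -0.26 without the 3 libraries in which all 9 genes were highest. Oligodendrocyte markers had a median interaction of -1.95 with 7 of 7 at an unadjusted *p* under 0.05 (limma). Endothelial markers had a median of -0.50, with 6 of 6 below 0 and 1 at that *p*. For astrocyte markers it was -0.39, with 6 of 7 below 0 and 0 at that *p*. Choroid plexus markers went the other way, with 5 of 5 above 0. Of these lists 0 genes were called (limma), and their part was not tested. For FLX the median interaction was -0.24, beside -0.10 over all genes, with 8 of 9 below 0. Of the 9, 0 were called, where 1.71% of all genes were, and 0 reached an unadjusted *p* under 0.05, where 16.8% did (limma). *C1qa* had the largest interaction at -0.43 (SE 0.23, 95% CI -0.90 to 0.04, limma adjusted *p* = 0.354). Oligodendrocyte markers had a median interaction of -2.04 with 7 of 7 at an unadjusted *p* under 0.05, as had 4 of 7 astrocyte and 2 of 6 endothelial markers (0 called, limma), and their part was not tested. Quantile normalization moved the median of all genes in that interaction to 0.01. Without the 3 libraries the median of the members was -0.03.

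Across libraries the members varied together. All 36 pairs correlated over 48 libraries (Pearson *r* 0.43 to 0.95, median 0.66; Spearman rho 0.41 to 0.93, median 0.60; permutation tests, largest adjusted *p* = 0.00275 over the 36 pairs). The C1q genes were the closest, with *r* of 0.95 in each of their 3 pairs and adjusted *p* of at most 1.8e-05 (permutation). *Trem2* had a median *r* of 0.52 with the other genes and *Aif1* likewise 0.52, while the 21 pairs without these 2 genes had a median of 0.85. Within groups, on deviations from the group means, the median *r* over the 36 pairs was 0.69. Leaving out the 2 libraries farthest from the median of the first gene of each pair, in the order of the opening list, *r* ran from 0.34 to 0.94. The far libraries of *Trem2*, always the second gene, were thus not left out on its account. Values of a library share its total, its punch and its composition.

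**Figure D3:**
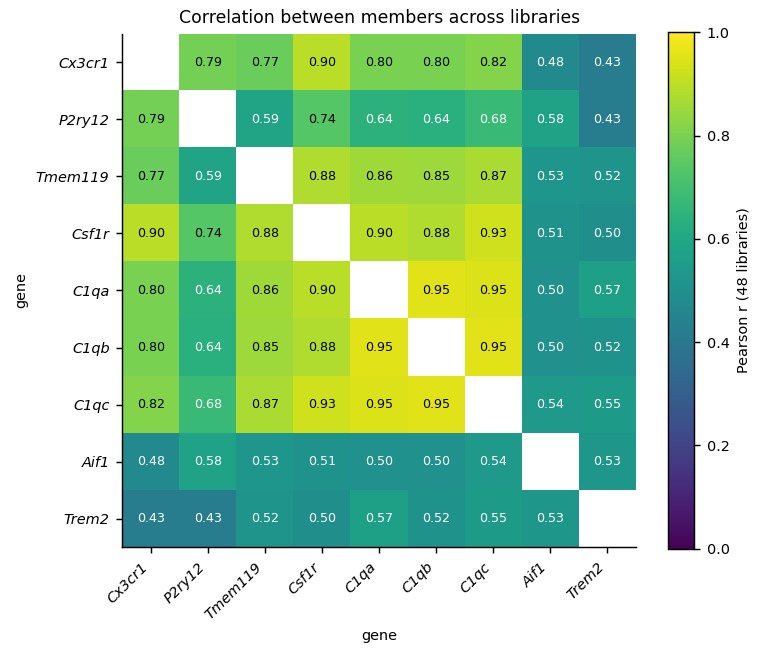
Pearson *r* of log2 levels for each pair of the 9 genes (both axes) over 48 libraries, by colour and number. The C1q genes form the closest block, and the rows of *Aif1* and *Trem2* are the lowest.

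**Figure D4:**
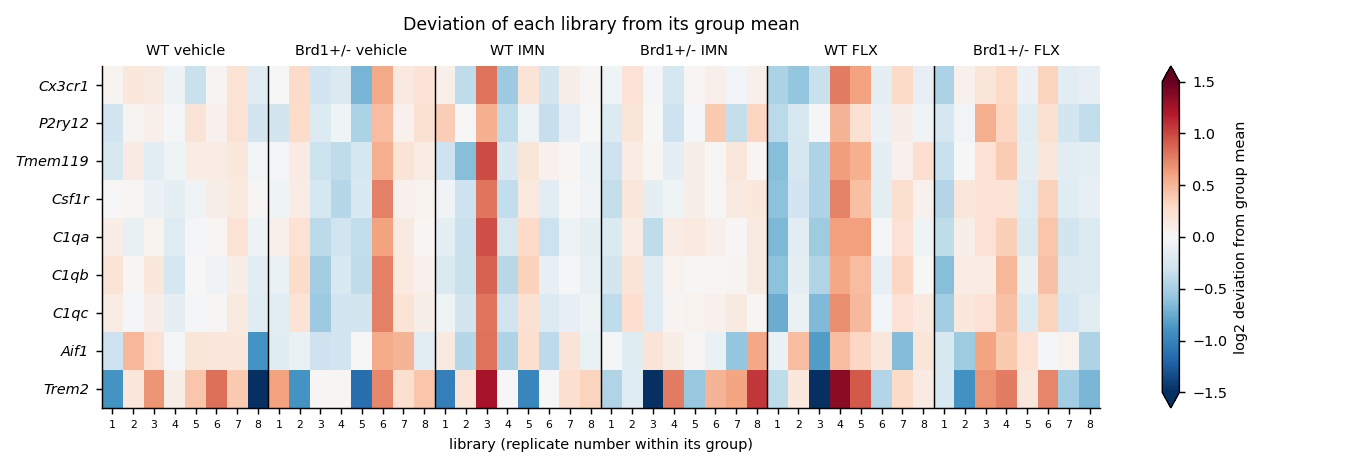
Deviation of each library from its group mean in log2 units (colour, limited at ±1.5), with the 9 genes as rows and the 48 libraries as columns by group and replicate number. WT IMN replicate 3, *Brd1*+/- vehicle replicate 6 and WT FLX replicate 4 are high in every row, and *Trem2* shows the strongest colours.

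Against the mean of the other 8 genes, on deviations from the group means, *r* was 0.93 to 0.94 for *Csf1r* and the C1q genes, 0.89 for *Tmem119*, 0.88 for *Cx3cr1*, 0.74 for *P2ry12*, 0.57 for *Aif1* and 0.56 for *Trem2* (a description over 48 libraries). Without the 4 libraries with the highest mean of the members these values fell to between 0.41 (*Aif1*) and 0.90 (*C1qc*). The value for *P2ry12* was below those of the other receptor genes *Csf1r* and *Cx3cr1*, and the difference between them was not tested.

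The genes outside the 9 whose deviations were most like the mean profile were ranked among 13814 protein-coding genes of at least 1 TPM. Among the 10 most alike were *Selplg* (*r* = 0.90), *Tyrobp* (0.89), *Ctss* (0.87), *Mpeg1* (0.87), *Laptm5* (0.85), *Fcgr3* (0.84), *Cd53* (0.84), *Fcer1g* (0.82) and *Csf3r* (0.82), while the median of all ranked genes was -0.08. *Tyrobp* encodes the signalling adaptor of the TREM2 receptor, *Ctss* a lysosomal protease, and *Fcgr3* and *Fcer1g* an Fc receptor and its signalling chain. Of 22 other microglia genes, 17 were among the first 100. Their summed level followed the members with *r* = 0.95 (rho 0.93), and 0.91 without the 4 highest libraries. *Spi1* was the lowest of them, with a mean of 3.25 TPM.

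Among the ligands and partners the levels were of other orders. *Apoe*, a lipid carrier of astrocytes bound by TREM2, had a mean of 1226 TPM, and *C3*, the central complement component, 0.218 TPM. *Cx3cl1*, which encodes the ligand of CX3CR1 and is made by neurons, had 349 ± 180 TPM, *Il34* 72.4 ± 24.8 TPM and *Csf1* 15.5 ± 7.66 TPM (SD, n = 48). Their *r* with the mean profile of the 9 members was -0.31 for *Cx3cl1*, -0.16 for *Il34* and 0.18 for *Csf1*. With vehicle, mean *Cx3cl1* was 411 TPM in WT mice and 273 TPM in *Brd1*+/- mice (log2 difference, *Brd1*+/- minus WT, -0.73, limma adjusted *p* = 0.540) and *C4b*, which acts downstream of C1q, 15.9 and 28.8 TPM (0.97, limma adjusted *p* = 0.286). Neuron markers lay below 0 for 5 of 8 genes and above 0 for 3 in the same comparison. Their part in the difference of *Cx3cl1* was not tested. Of the 14 ligand and partner genes tested between genotypes with vehicle 0 were called and 4 reached an unadjusted *p* under 0.05 (limma). Over all genes these shares were 0.708% and 8.52%.

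**Figure D5:**
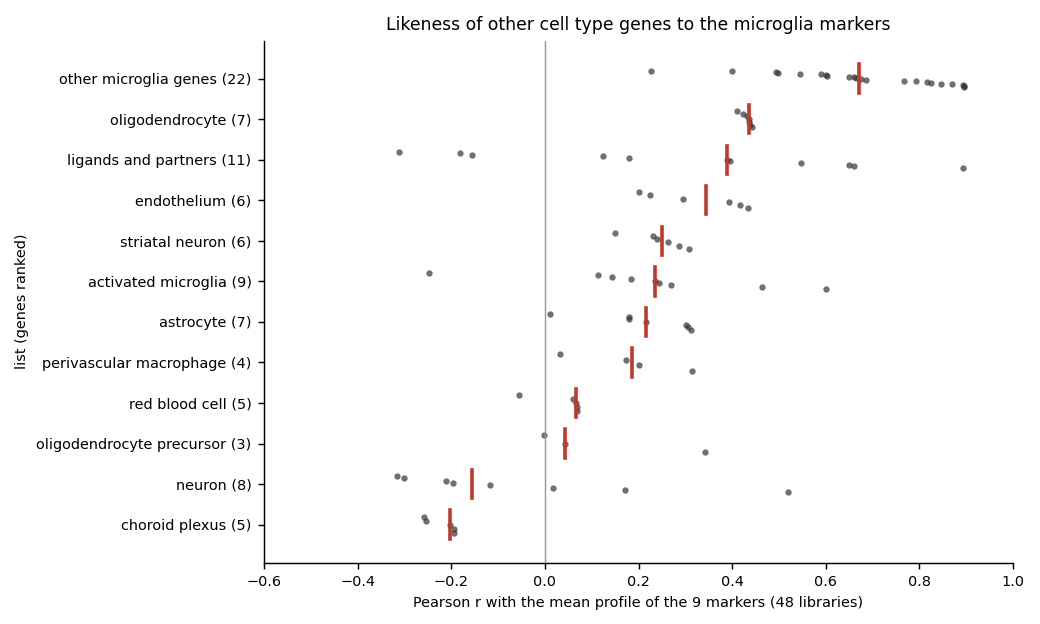
Pearson *r* (horizontal axis) of each gene of 12 lists with the mean profile of the 9 markers, on deviations from group means over 48 libraries; points are genes, red lines the medians, and numbers the genes ranked. The other microglia genes lie farthest to the right, with a median of 0.67, and choroid plexus genes farthest to the left, at -0.20.

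The other microglia genes were set beside the members, without a test of likeness. Between genotypes with vehicle 18 of 22 lay above 0 with a median log2 difference of 0.31, 0 were called and 10 reached an unadjusted *p* under 0.05 (limma). Of all genes 0.708% were called and 8.52% reached that *p*. With IMN in *Brd1*+/- mice 22 of 22 lay below 0 with a median of -0.34, 0 called and 11 at an unadjusted *p* under 0.05 (limma). The shares over all genes were 0.776% and 9.3%. With IMN in WT mice 14 of 22 lay above 0 with a median of 0.09, and between genotypes with FLX 9 lay above and 13 below with a median of -0.02 (0 called in either, limma, with 2 and 0 at an unadjusted *p* under 0.05). Over all genes 0% were called and 4.58% reached that *p* for IMN in WT mice. For genotype with FLX these shares were 1.54% and 16.6%. *Sall1*, a transcription factor of microglial identity, had the smallest *p* of the list for IMN in *Brd1*+/- mice, with 7.74 TPM with IMN and 12.7 TPM with vehicle (log2 difference -0.68, limma adjusted *p* = 0.124). These genes were measured in the same libraries as the 9 and are no independent sample of mice.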

How the data were processed

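Per the study's methods and the labels, punches of the amygdala were sequenced (TruSeq libraries), and the authors trimmed single-end reads with Trimmomatic, aligned them to GRCm38 with HISAT2 2.1.0 and quantified genes with StringTie 1.3.4. The values the authors deposited are TPM, 1 column per library. TPM retains no depth, and a rise in some transcripts lowers the share of the rest. The series' design text names other regions and another sequencer than the labels, which say amygdala and were followed. Groups, doses and replicate numbers came from the labels.

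Symbols and coordinates (1-based) came from GENCODE M21 (GRCm38), in which 52489 of 52636 IDs (99.7%) were found, and 0 columns were left without a sample. Values were transformed to log2(TPM + 0.1), so fold changes are on that scale and understate those of low genes. Genes with at least 0.1 TPM in at least 8 samples of a fit were tested with limma 3.58.1 (R 4.3.3, eBayes with trend) on the compared groups alone, without covariates, two-sided, with Benjamini-Hochberg adjustment over all genes of the fit and a threshold of 0.05. Replicates are separate mice, some of which may be litter-mates. Pairs of members were compared by 100000 permutations (scipy 1.17.1).

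The members and lists were chosen with earlier results of these data known. Named were the members, the 10 genes most like them, in the lists described the called, highest and lowest genes, and in each comparison the member with the largest difference. Some genes under this rule are not reported here. *Cx3cl1*, *Il34*, *Csf1*, *C4b* and *Sall1* were named after their values were seen. On simulated data for genotype in vehicle (24279 genes, 200 changed), the code called 119 (59.5%; 49.5% of 109 changed 2-fold, 71.4% of 91 changed 4-fold), all in the right direction, with 3 unchanged genes.

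Alternatives were pseudocounts of 0.01 and 1, no filter or 1 TPM, median-ratio scaling, quantile normalization, eBayes without trend, 1 fit of all 48 libraries, sample code ranges, the replicate block and leaving out each library. Fits without the 3 libraries in which all members were highest, and likeness without the 4 highest, were added after the data had been seen.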

Additional observations from a re-analysis of the deposited data

Results flagged for a closer look

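Each member and the mean of the 9 was examined in each of the 6 groups for a library far from the rest of its group, by the gap to its nearest neighbour divided by the range. Members were examined in TPM and their mean in log2 units. Of the 60 tests 10 exceeded the critical value, all for the highest library. By chance about 1 in 20 would for normally distributed values, a shape that TPM need not have. WT IMN replicate 3 stood apart as the highest of its group for *Cx3cr1* (44.4 TPM), *Tmem119* (50.3 TPM), *Csf1r* (80.5 TPM), *C1qa* (173 TPM), *C1qc* (117 TPM), *Aif1* (22.1 TPM) and *Trem2* (27.9 TPM), and for the mean log2 level of the 9 genes (6.00). *Brd1*+/- vehicle replicate 6 stood apart as the highest for *Csf1r* (88.1 TPM) and *C1qc* (117 TPM). The tests are not independent, since the members are correlated within libraries. In the same libraries summed oligodendrocyte markers were 3.43 and 2.56-fold over the rest of the group and summed endothelial markers 1.21 and 1.18-fold. Striatal neuron markers, summed, were 0.248 and 9.74-fold. The part of these cell types in the members' levels was not tested.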

How the results depend on the processing

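In each of the 12 comparisons 0 of 9 members were called in the limma fits under every alternative tried, the added ones included. Medians kept their sign under all pseudocounts, filters, scalings, a term for the code range (run for the 4 genotype comparisons) and the single fit (run for the 9 comparisons of 2 groups). The code term did not set apart the drug-treated WT mice whose codes lie above those of every *Brd1*+/- mouse. Leaving out 1 library turned the sign of the median for genotype in FLX mice (-0.08 to 0.13), FLX in WT mice (-0.00 to 0.23) and FLX against IMN in WT mice (-0.18 to 0.02). Medians ranged from 0.18 to 0.32 for genotype in vehicle, from -0.25 to -0.05 for genotype in IMN, from 0.06 to 0.24 for IMN in WT from -0.41 to -0.21 for IMN in *Brd1*+/- mice and from 0.06 to 0.19 for FLX against IMN in *Brd1*+/- mice. Median-ratio scaling left 1 member and quantile normalization 2 at an unadjusted *p* under 0.05 for genotype in vehicle, beside 3. Within WT IMN mice 5 of the 8 neighbouring pairs kept the order of levels. Replicate numbers were not taken as pairs of mice. The correlation of same-numbered libraries ran from -0.30 to 0.58, with at most 2 of 8 numbers matching best. Its median was highest for IMN in *Brd1*+/- mice, at 0.12, with 4 of 8 pairs over 0.1. The composition of the punches enters these correlations, so they cannot exclude pairing by litter. With the replicate block 0 members were called and the median for genotype in vehicle was 0.27. TPM gives no depth, so counting error is unknown. By level times transcript length, *Aif1* and *Trem2* would receive the fewest reads of the 9. The 9 genes share libraries and are not replicates.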

Other observations

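Genes of activated microglia were mostly low. Of 19 such genes, *Axl*, a receptor for dying cells, was the highest with a mean of 32.5 TPM, and *Ccl4*, a chemokine, was listed at 0 in all 48 libraries. *Il1b* and *Tnf*, the genes of inflammatory cytokines, had means of 0.0173 and 0.00341 TPM, and *Itgax* and *Cst7*, genes of a disease-associated state, 0.0102 and 0.0691 TPM. Between genotypes with vehicle 10 of the 19 were tested, 0 were called and 2 reached an unadjusted *p* under 0.05 (limma), *Spp1*, with 25.3 TPM in *Brd1*+/- and 9.23 TPM in WT mice (log2 difference 1.14, limma adjusted *p* = 0.297), and *Cd74*. Over all genes 0.708% were called and 8.52% reached that *p*. The sum of the list had an *r* of 0.44 with the profile of the 9 microglia markers over 48 libraries. For its genes of highest mean level *r* was 0.24 (*Axl*), 0.60 (*Spp1*), 0.11 (*Lpl*) and 0.46 (*Cd68*). These genes were named after their values were seen, apart from *Axl* and *Ccl4*.

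Among the 30 genes most like the microglia markers was *Pvalb*, the gene of the calcium buffer of a class of inhibitory neurons, at rank 30 (*r* = 0.73, 0.61 without the 4 highest libraries, mean 66.7 TPM). It was also chosen after its value was seen. Summed marker levels had an *r* of 0.46 for endothelium, 0.43 for oligodendrocytes, 0.30 for astrocytes, 0.24 for perivascular macrophages and for striatal neurons, 0.16 for oligodendrocyte precursors, 0.07 for red blood cells, -0.12 for neurons, -0.17 for blood leukocytes and -0.25 for choroid plexus with the same profile, as a description over 48 libraries that share their punches.

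No gene of the 13 other lists passed the adjusted threshold in any of the 12 comparisons (limma). The smallest adjusted *p* was 0.0566, for the astrocyte gene *Aldoc* with FLX in WT mice (756 against 537 TPM, log2 difference 0.51). By mean level, *Aldoc* (608 TPM) and *Aldh1l1* (39.8 TPM) were the highest and lowest astrocyte markers, *Snap25* (1516 TPM) and *Slc17a6* (39.96 TPM) the highest and lowest neuron markers, *Ly6c1* (57.5 TPM) and *Tek* (4.91 TPM) those of endothelium, and *Cd163* (1.202 TPM) and *Ms4a7* (0.118 TPM) those of perivascular macrophages. *Mog* (122.1 TPM) was the lowest oligodendrocyte marker. *Ly6c2* (0.719 TPM), the highest blood leukocyte marker, was listed at 0 in 46 of 48 libraries.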
